A study of Homo sapiens with 20 samples.

Results

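The regions called for HA-tagged POU2AF2 in NCI-H526 cells were compared between treatment with AU-15330 and treatment with DMSO. NCI-H526 is a small cell lung cancer line of the tuft cell-like, POU2F3-expressing subtype. Both samples carried a lentiviral POU2AF2 fused to a degron (dTAG) and an HA tag, in cells that expressed Cas9 and in which the endogenous POU2AF2 gene had been knocked out, and both were immunoprecipitated with the same HA antibody. The AU-15330 sample received 1 µM, with a treatment time that the labels give as 4 to 6 h for the series, and the DMSO sample received the vehicle. On chromosomes 1 to 22 and X, the AU-15330 list held 2663 regions and the DMSO list 34280 regions, out of the 20 region lists that the series holds for several factors and cell lines. A DMSO region was counted as kept when an AU-15330 region shared at least 1 base with it, and as lost if none did. AU-15330 regions that touched no DMSO region were counted as gained. By this rule 430 DMSO regions were kept and 33850 were lost, and 2232 AU-15330 regions were gained.

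POU2F3, a transcription factor of the POU family, binds the octamer sequence and specifies tuft cells, the chemosensory cells of the epithelium. POU2AF2 (also called OCA-T1) is a tuft cell coactivator that binds POU2F3 at octamer sites. AU-15330 is a PROTAC that degrades SMARCA2, SMARCA4 and PBRM1, the ATPases and an accessory subunit of the mSWI/SNF chromatin remodelling complexes that open chromatin at enhancers. The octamer is also the core of the distal element that drives genes of the small nuclear RNAs (snRNAs), and of histone H2B promoters, where it is bound by the broadly expressed POU factor Oct-1.

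Each condition was 1 library, so no test between treatments was possible, and the intervals below are exact binomial 95% intervals that cover counting error only. The libraries differed in depth. The genome-wide background used by the peak caller, recovered from the deposited fold and p-values, was 1.21 fragments per base with AU-15330 and 3.49 with DMSO. This corresponds to an estimated 17.3 M tags with AU-15330 and 46.9 M with DMSO if the narrowest region of each list equals its fragment length. Depth and treatment therefore cannot be told apart for regions near the calling threshold, and levels are given below as the summit pileup over the genome background of the same library.

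The share of DMSO regions kept was 1.25% (interval 1.14 to 1.38%). If occupancy had not changed, 19059 of the DMSO regions would have passed the weakest p-value of the AU-15330 list at its depth, and 399 of these, 2.09% (1.89 to 2.31%), were kept. A kept region shared between 2 bases and its whole length with its AU-15330 region, with a median overlap of 225 bases. The summits of the 2 libraries lay a median of 58.5 bases apart at kept regions (quartiles 22.3 and 131). Near the edge of the rule, 15 lost regions had an AU-15330 region within 100 bases and 149 within 1000 bases.

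The sequences below are the octamer sites of kept and lost regions that the results turn on. Each is 30 bases of the hg38 reference read 5′ to 3′ on the strand that carries TTTGCAT, the octamer core, with the chosen copy in capitals. The first set lies upstream of the start of kept snRNA and U3 small nucleolar RNA genes.
RNU11, 218 bases upstream, chr1:28648371-28648400, plus strand: ccctgagtataTTTGCATatcaactcacta
RNU5A-1, 202 bases upstream, chr15:65295838-65295867, plus strand: ttcaggtctcaTTTGCATacccataataca
RNU4ATAC, 229 bases upstream, chr2:121530640-121530669, minus strand: ccgctcgaaaaTTTGCATacgcttttctcg
RNU4-2, 228 bases upstream, chr12:120292113-120292142, minus strand: cgtcacgttgaTTTGCATaagattccccag
RNU7-1, 205 bases upstream, chr12:6943600-6943629, plus strand: caccgaactcaTTTGCATgggctgagaaca
U3, 224 bases upstream, chr17:58632042-58632071, minus strand: gctctgagtgaTTTGCATgctttgctacca

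The second set is from kept regions at tuft cell factor genes, at the tuft cell gene IRAG2, at an anti-apoptotic gene and at a histone promoter. The distance of the core from the DMSO summit is given.
POU2AF2 intron, 33 bases from the summit, chr11:111273920-111273949, minus strand: ataatttttatTTTGCATactgcaaacaac
POU2AF2 promoter, 16 bases, chr11:111245661-111245690, plus strand: acaccaaaggaTTTGCATttaatcaaatct
POU2F3 promoter, 6 bases, chr11:120236423-120236452, plus strand: tttgcatttaaTTTGCATttcatttacata
IRAG2 intron, 22 bases, chr12:25058888-25058917, minus strand: tatgaccacaaTTTGCATtcacctttgcat
MYB intron, 3 bases, chr6:135193298-135193327, minus strand: tttgcatataaTTTGCATatgagctctcta
BCL2 intron, 28 bases, chr18:63138852-63138881, minus strand: cccctgcctgaTTTGCATtcttagctaaat
H2BC8 promoter, 188 bases, chr6:26216717-26216746, minus strand: tgaattctttaTTTGCATgaaaggcctata

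The third set is from strong regions that were lost.
PTGS1 intron, 16 bases from the summit, chr9:122376308-122376337, plus strand: aagcaaaactaTTTGCATgattcttgtggt
AVIL promoter, 5 bases, chr12:57818763-57818792, plus strand: atttgcttgtgTTTGCATcttaaccgcatt
TMEM256 promoter, 27 bases, chr17:7404144-7404173, minus strand: tgtgaaccttaTTTGCATgggcggtcggga
CHD9 promoter, 4 bases, chr16:53130866-53130895, minus strand: ccggcgcgctaTTTGCATatttgtgcccgc
Every site shown was chosen for holding the core, so its presence at both kept and lost regions is no result. How often the core stood near the summit over all kept and lost regions is given below. At 5 of the 6 small RNA genes shown the printed core lay outside the region, the exception being RNU4ATAC. The regions at RNU11 and RNU5A-1 held another copy of the core, which is not printed. The printed windows of the POU2F3 promoter, the IRAG2 intron and the MYB intron hold a further copy in lower case. The POU2AF2 promoter and BCL2 intron regions held further copies that are not printed. Searched on both strands, TTTGCAT occurs in 4.46% of 35116 RefSeq promoter windows of 300 bases (GRCh38.p14).

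Among the 20 kept regions with the highest DMSO fold enrichment, 9 lay over genes of small nuclear or nucleolar RNAs, and 3 others were called in every one of the 18 other lists of the series. Only 4 of these 20 held the octamer core within 100 bases of the summit. Kept regions were therefore split into 5 classes, in this order, after their values had been seen: over a small nuclear or nucleolar RNA gene (42 regions), in a 1-Mb window of raised local background (22), called in all 18 other lists (19), within 1 kb of a protein-coding start (95), and the remaining exonic, intronic and intergenic regions (252). The share of DMSO regions kept was 53.2% (41.6 to 64.5%) of 79 in the small RNA gene class. It was 90.5% (69.6 to 98.8%) of the 21 called everywhere and 14.3% (9.17 to 20.8%) of 154 in raised windows. It was 1.36% (1.10 to 1.66%) of 6970 protein-coding promoters and 0.931% (0.820 to 1.05%) of the 27056 remaining regions, against 1.25% of all. The first 3 classes stood well above that share, and they made up 9.77%, 5.12% and 4.42% of the kept regions. The large remaining class made up 58.6% of them. The 18 other lists include AU-15330 lists, among them those of POU2F3 and HA-POU2F3 in NCI-H526. The class called in all of them was thus chosen partly by calls with AU-15330. Its high share of kept regions follows in part from that rule and is no separate result.

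**Figure D1:**
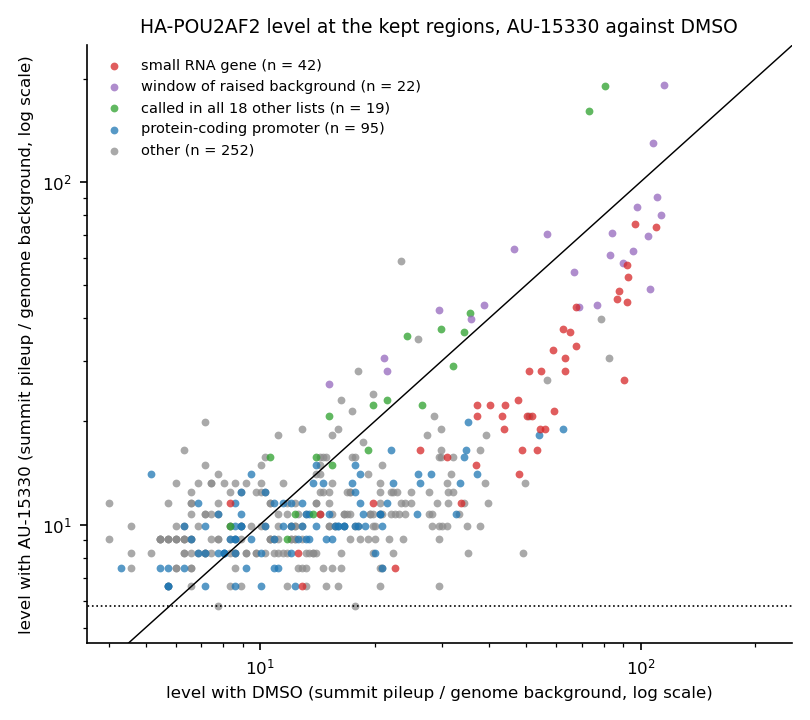
Level of HA-POU2AF2 (summit pileup over the genome background of the library, both axes on a log scale) with AU-15330 against DMSO at the 430 kept regions, coloured by class. The solid line marks equal levels and the dotted line the lowest AU-15330 level listed, 5.79. Of the 42 small RNA gene regions, 41 lie below the line of equal levels on this scale.

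HA-POU2AF2 regions were kept at many genes of the spliceosomal snRNAs. U1, U2, U4 and U5 RNAs serve the major spliceosome, and U11, U12 and U4atac the minor one. The 42 kept regions of this class overlapped 20 U1 and U1 variant genes and 7 U5 genes or copies, with U2, U4, U4atac, U7, U11, U12, U3 and U8 among the others. Of 30 genes of the small RNA list, 13 had a kept region within 500 bases of the start, against 1.57% of all 2613 annotated, and 19 had a DMSO region, against 3.98%. Among genes with a DMSO region there, a kept one was found at 13 of 19 of the list and 41 of 104 of all annotated. From that list the 12 kept genes made by RNA polymerase II were RNU1-1, RNU1-2, RNU11, RNU12, RNU4-1, RNU4-2, RNU4ATAC, RNU5A-1, RNU5B-1, RNU5D-1, RNU5F-1 and RNU7-1. RNU5E-1 lay under a kept region too, with its DMSO summit 1544 bases from the start. RNU1-3, RNU1-4 and RNU2-1, also made by RNA polymerase II, had no region in either list. Of the genes made by RNA polymerase III, only RPPH1, the RNA of RNase P, had a kept region. RMRP, RN7SL1, RNU6-1, RNU6-7, RNU6-8 and RNU6-9 each had a DMSO region that was lost, and RN7SK, RNU6-2, RNU6ATAC, RN7SL2, RNY1, RNY3 and RNY4 had none in either list.

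The region over RNU5A-1 (chr15:65295896-65297217) had a summit pileup of 40 fragments with AU-15330, a level of 33.1, and of 236 fragments with DMSO, a level of 67.6. RNU11, the minor-spliceosome U11 gene (chr1:28648471-28649673), had a level of 28.1 with AU-15330 and 63.3 with DMSO. RNU12 (chr22:42615123-42616150) had a level of 14.1 with AU-15330 and 47.9 with DMSO. Over the genome background these 3 regions were lower with AU-15330 and still more than 10 times that background. RNU7-1, the U7 RNA that processes histone mRNA 3′ ends (chr12:6943726-6944968), had a level of 20.7 with AU-15330 and 50.4 with DMSO. SNORD118, the U8 RNA of ribosomal RNA processing (chr17:8173010-8173733), had a level of 20.7 with AU-15330 and 37.3 with DMSO. The region over RPPH1 (chr14:20342879-20343628), which is also near the PARP2 start, had a level of 7.45 with AU-15330 and 22.6 with DMSO.

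Over the class, the ratio of the AU-15330 level to the DMSO level had a median of 0.511 (quartiles 0.405 and 0.582), from 0.292 at RNU5F-1 to 1.39 at a U1 copy of low pileup. The level was lower with AU-15330 at 41 of these 42 regions, against 64.7% of all kept regions. The class had a median DMSO level of 51.4, against 14.9 for all kept regions. At a DMSO level of 25 to 50, 13 of 13 regions of the class were lower (median ratio 0.487). At that level 10 of 10 promoters (0.467) and 33 of 34 remaining regions (0.383) were lower too. In raised windows 0 of 4 were lower there, and 2 of 5 of those called in all other lists. Over the local background, which without a control includes the region's own fragments, the median ratio of the small RNA gene class was 0.981. On this scale 22 of 42 were lower, and RNU7-1 (1.13) and SNORD118 (1.18) were among those that turned. The U1 and U1 variant (RNVU1), U5 and U3 genes are near-identical copies, so which copy gave the reads is uncertain. RNVU1-26 and RNVU1-24, also U1 variants, had the highest DMSO folds of any lost region, 21.6 and 17.6. Chromosome 1 held 19.3% of the kept regions and 9.67% of the lost ones.

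**Figure D2:**
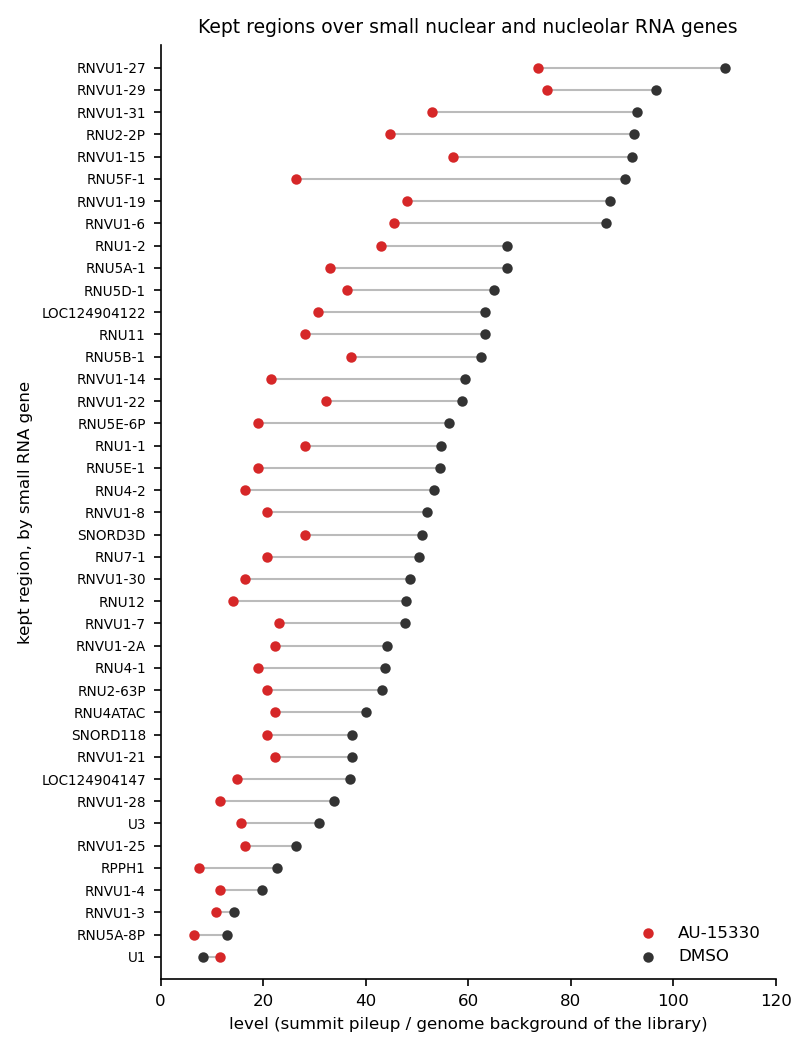
Level of HA-POU2AF2 (summit pileup over the genome background of the library) with AU-15330 (red) and DMSO (black) at 41 of the 42 kept regions over small nuclear or nucleolar RNA genes, 1 library each. The AU-15330 point lies left of the DMSO point in every row but that of the copy named U1.

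The summits at these genes lay mostly downstream of the start and not at an octamer core. Of 40 regions with an annotated GENCODE start, 36 had their summit within 300 bases downstream of it with AU-15330, and 36 with DMSO, at a median of 133 bases with AU-15330 and 121 with DMSO. The core was found within 400 bases upstream of 15 of the 40 starts, in 14 of them between 200 and 300 bases upstream, and within 400 bases upstream of 10.7% of all 2825 annotated genes of these types. None of the 42 regions held the core within 100 bases of the summit, and 7 held it anywhere in the region. The kept regions had a median width of 1001 bases and a median DMSO pileup of 180 fragments, against 316 bases and 25 fragments for the 37 lost regions of the class, of which 22 held the core at the summit. Many of those were copies of the U6 gene, such as RNU6-486P and RNU6-1042P. The kept regions of the class were called in a median of 16 of the 18 other lists, and the lost ones in a median of 3. In the myeloma line NCI-H929, the POU2AF1 DMSO list held 38 of the 42 kept regions and the IRF4 DMSO list held 38 too. In MM1.S the counts were 37 for POU2AF1 and 31 for IRF4 with DMSO, so the overlap was not particular to POU2AF1.

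The share kept was also compared at similar DMSO pileup. Among DMSO regions with a pileup of 100 to 199 fragments, 19 of 20 were kept at small RNA genes, 7 of 16 at protein-coding promoters and 30 of 85 in the remaining regions. With 50 to 99 fragments the counts were 4 of 9, 30 of 261 and 83 of 1334 for the same classes. At 100 to 199 fragments the counting intervals were 75.1 to 99.9% for small RNA genes and 19.8 to 70.1% for promoters. They overlapped at 50 to 99. These intervals take regions as independent, whereas many of the small RNA gene class are near-identical copies from the same library. The class was also set after its values had been seen, and no test between classes was made. In windows of raised background 5 of 70 regions with 100 to 199 fragments were kept, and 14 of 42 with 200 or more.

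**Figure D3:**
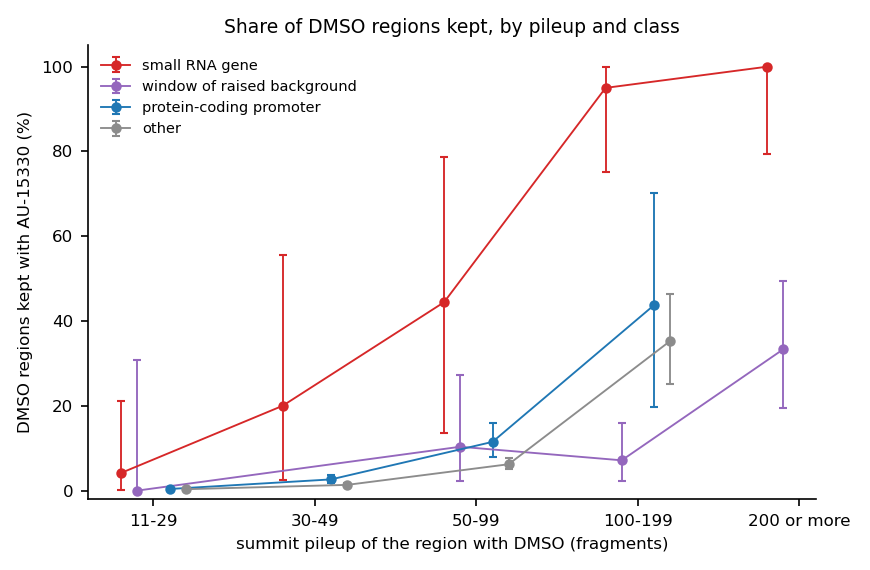
Share of DMSO regions kept with AU-15330 (per cent, with exact 95% intervals for counting error) by the summit pileup of the region with DMSO, for 4 classes. Bins with under 5 regions are not drawn. Small RNA genes lie highest in every bin, at 19 of 20 regions for 100 to 199 fragments.

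Replication-dependent histone genes, which make the core and linker histones of S phase, were a further gene family with many kept regions. Of 69 such genes, 20 had a kept region in the gene or the 10 kb upstream, and 53 had a DMSO region, whereas 1.42% of all 19960 protein-coding genes had a kept region and 57.8% a DMSO region. Neighbouring histone genes share regions, so these were counted by position too. Of 42 DMSO regions within 1 kb of a histone start, 10 were kept, 23.8% (12.1 to 39.5%), against 1.37% (1.11 to 1.67%) of 6940 at other protein-coding starts. These 10 had DMSO pileups of 49 to 189 fragments. In the promoter class, which includes histone starts, 11.5% of regions with 50 to 99 fragments were kept. The share there was 43.8% with 100 to 199 fragments and 0.378% with 11 to 29. The histone share was not compared at similar pileup.

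The region at H2BC18 (chr1:149812070-149812828) had a level of 14.1 with AU-15330 and 37.3 with DMSO. The H2BC8 region (chr6:26216159-26217437), which also covers H2AC8 and H3C6 windows, had 13.2 with AU-15330 and 26.4 with DMSO. The linker histone H1-2 region (chr6:26055270-26056590) had 10.8 with AU-15330 and 32.7 with DMSO. The level was lower with AU-15330 at 9 of the 10 regions over the genome background but at 5 of the 10 over the local background. On the first scale the exception was H4C5, with 14.9 with AU-15330 and 14.04 with DMSO. The summit lay between 9 and 257 bases downstream of the nearest histone start at 9 of the 10, and 320 bases upstream at H2BC5. The core stood within the region at 5 of the 10, and within 100 bases of the summit only at H2BC11.

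The counts in the other families were near the 1.42% of all protein-coding genes with a kept region. RPL10 and RPL26 had kept regions among 80 cytosolic ribosomal protein genes, of which 72 had a DMSO region, as did none of 16 housekeeping genes, of which 15 had a DMSO region. Of 28 mSWI/SNF subunit genes none had a kept region, 24 had a DMSO region, and PBRM1, DPF2 and BICRA had a gained one, against 5.56% of all protein-coding genes with a gained region.

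Of the kept promoters, that of POLR2A, the largest subunit of RNA polymerase II, had the highest DMSO fold (12.3, chr17:7484251-7484867), with a level of 16.5 with AU-15330 and 22.1 with DMSO. NXF1, the mRNA export receptor (chr11:62805211-62805673), had 11.6 with AU-15330 and 21.5 with DMSO. IER5, an immediate early gene (chr1:181088434-181088917), had 19.9 with AU-15330 and 35.2 with DMSO. APAF1, the apoptosome scaffold (chr12:98645113-98645461), had 9.93 with AU-15330 and 16.05 with DMSO. These 4 were lower with AU-15330 on both scales. The 95 promoters had a median level of 9.93 with AU-15330 and 12.6 with DMSO, and 63 of them were lower with AU-15330, but their median ratio was 0.798 over the genome background and 1.11 over the local background, so that the direction depended on the scale. The core was within 100 bases of the summit at 13.7% of kept and 7.17% of lost regions in the promoter class.

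The kept regions of the tuft cell genes were mostly at the factor genes. Over 46 tuft cell genes, 6 had a kept region and 44 a DMSO region. In all, 10 of 148 DMSO regions in their windows were kept, 6.76%, against 1.23% over all protein-coding genes. Among the 10 transcription regulators POU2F3, POU2AF2 and MYB held 7 kept regions of 54. Among the 14 chemosensory and signalling genes, such as TRPM5 and GNAT3, none of 36 was kept. Of the 8 eicosanoid genes PLA2G4A kept 1 region, and of the 14 markers and effectors IRAG2 and PTPN6 kept 1 each. The PTPN6 one is the RNU7-1 region named above, and the 2 at MYB lie in a window of raised local background, described below. The kept regions of POU2F3 and POU2AF2 had DMSO pileups of 104 to 173 fragments. Of all DMSO regions with 100 to 199 fragments, 33.3% were kept. The share at tuft cell genes was not compared at similar pileup.

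POU2F3 kept 3 of its 8 DMSO regions. Its promoter region (chr11:120236299-120236998) had a level of 13.2 with AU-15330 and 33.5 with DMSO. An intronic region 5.29 kb downstream of a start (chr11:120245159-120245681) had 19.0 with AU-15330 and 29.8 with DMSO, and one 15.3 kb downstream (chr11:120254842-120255735) had 16.5 with AU-15330 and 37.8 with DMSO. A further region near an alternative start (chr11:120239859-120240348) had the highest DMSO pileup of the gene, 144 fragments, and was lost, although its fold was the second highest of the 8. All 3 kept regions were lower with AU-15330 over the genome background, but over the local background the one 5.29 kb downstream turned to a ratio of 1.24.

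POU2AF2 itself, whose endogenous gene was knocked out in these cells, kept 2 of 3 regions. The intronic one (chr11:111273674-111274186), 17.9 kb downstream of the start, had a level of 13.2 with AU-15330 and 49.6 with DMSO. The promoter one (chr11:111245468-111245891) had 16.5 with AU-15330 and 34.7 with DMSO. The ratios were 0.267 at the intron and 0.477 at the promoter, or 0.384 and 0.689 over the local background, so both were lower on either scale. The neighbouring POU2AF3 (OCA-T2), a paralogue, had 1 DMSO region and lost it.

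IRAG2, an endoplasmic reticulum protein of tuft cells, kept its strongest region of 7 (chr12:25058675-25059100), with a level of 12.4 with AU-15330 and 32.1 with DMSO. PLA2G4A, the phospholipase that releases arachidonic acid, kept 1 intronic region of 4 (chr1:186843265-186843653), with 14.9 with AU-15330 and 14.3 with DMSO. The strongest region of PTGS1, the cyclooxygenase COX1, had a DMSO fold of 13.8 and the 44th rank of all regions (chr9:122376155-122376537), and was lost. The promoter regions of the actin regulator AVIL (fold 9.99, chr12:57818545-57818999) and the serotonin receptor subunit HTR3E (7.60, chr3:184099781-184100202) were lost, as was the intronic region of ALOX5AP (8.66, chr13:30744569-30744973), the activator of leukotriene synthesis. The strongest regions in the windows of GFI1B (10.6, chr9:132942791-132943143), TRPM5 (7.45, chr11:2424760-2425222), POU2AF3 (5.68, chr11:111303486-111303833), DCLK1 (3.71, chr13:35953198-35953703) and ASCL2 (3.67, chr11:2269764-2271042) were lost too. None of 21 neuroendocrine genes had an AU-15330 region, against 6.77% of all protein-coding genes, and 12 had a DMSO region, 57.1% against 57.8%, so these counts were near those of all genes.

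MYB, a proto-oncogene of progenitor cells, and MYCN, a driver of small cell lung cancer, lay in windows where the local background itself was raised. In 1646 windows of 1 Mb with at least 10 DMSO regions, the median local background was 1.198 times the genome background. It was over 5 times in 3 windows, chromosome 2 at 15 to 16 Mb and 16 to 17 Mb, and chromosome 6 at 135 to 136 Mb. The median there was 28.1, 19.6 and 15.2 times the genome background in the AU-15330 list, and 25.3, 17.7 and 10.6 times in the DMSO list. The next highest window reached 3.27 times with DMSO. More than 1 Mb from the MYCN start the local background of the DMSO regions was at most 2.11 times the genome background on either side. The AU-15330 list had 2 regions there, both downstream, at 1.09 and 1.13 times, and none upstream. The cause of the raised background was not tested.

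**Figure D4:**
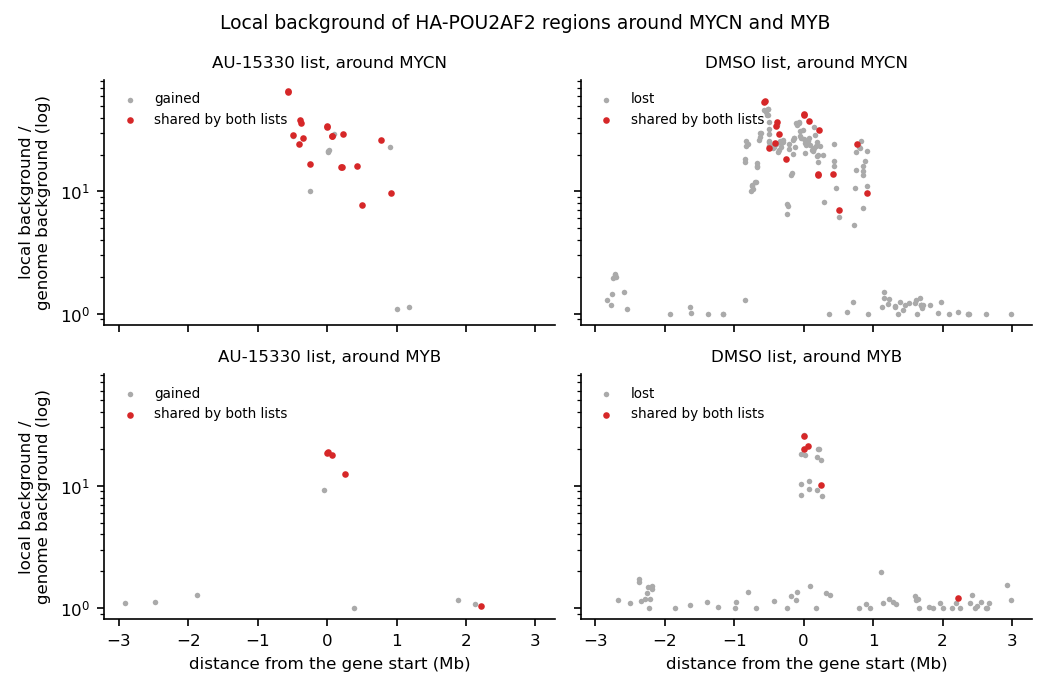
Local background over genome background (log scale) of each region within 3 Mb of the MYCN start (upper panels) and the MYB start (lower panels), AU-15330 list left and DMSO list right. Red points are regions shared by both lists. Around both genes the points rise above 10 near the start, and points further out lie near 1, with no AU-15330 point on the far upstream side of MYCN.

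These 3 windows held 22 kept regions. MYCN had a promoter region (chr2:15939716-15940884) with a level of 90.2 with AU-15330 and 110 with DMSO, where the local background alone was 42.8 times the genome background with DMSO. The highest level of the 22 was in an intron of NBAS (chr2:15377106-15377964), at 192 with AU-15330 and 115 with DMSO. The promoter of DDX1, an RNA helicase gene beside MYCN (chr2:15591452-15592398), had 57.9 with AU-15330 and 90.0 with DMSO. At the MYB promoter (chr6:135180520-135181997) the level was 43.8 with AU-15330 and 76.8 with DMSO. At the octamer-containing MYB intron region (chr6:135192922-135193522) it was 43.0 with AU-15330 and 69.1 with DMSO. The directions were mixed in these windows, with 12 of 22 lower with AU-15330 over the genome background and 13 of 22 over the local one. The median DMSO fold, which is taken over the local background, was 2.55 here against 6.29 for all kept regions.

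Of the class called in every list, 19 regions were kept. None held the octamer core, and their median level was 22.3 with AU-15330 and 19.8 with DMSO, a ratio of 1.12 (quartiles 0.887 and 1.31), or 1.08 over the local background. Of these, 8 lay at 49 to 50 Mb of chromosome 4. The region with the highest DMSO fold of all (29.2, chr13:18211865-18212540) was one of them, with a level of 190 with AU-15330 and 80.8 with DMSO. Of the 1000 regions with the highest DMSO fold 78.3% held the core near the summit, and of the first 20, 2 did.

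The remaining class was the largest, with 252 kept regions. The core was within 100 bases of the summit in 60.3% of them, against 56.2% of the lost regions of the same class. Their median level was 9.93 with AU-15330 and 13.0 with DMSO, with a ratio of 0.825 over the genome background and 1.03 over the local background. A region needed a level of at least 5.79 to be listed with AU-15330, so weak DMSO regions could be kept only with a high ratio. The 97 that were higher with AU-15330 had a median DMSO level of 7.16, and the 155 that were not had one of 17.2. The core was at the summit of 36 of the 97 and of 116 of the 155. Among kept regions of this class with a DMSO level of 25 to 50, 33 of 34 were lower and the median ratio was 0.383, and over the local background 31 were lower and the median ratio was 0.652.

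Of the strong regions in this class, one upstream of TP53BP2, a p53-binding protein gene (chr1:223876384-223876995), had a level of 8.27 with AU-15330 and 35.2 with DMSO. BCL2, which blocks apoptosis, had an intronic region 19.3 kb downstream of its start (chr18:63138443-63139312) with 9.93 with AU-15330 and 35.0 with DMSO. A region 53.3 kb upstream of SOX4, a developmental transcription factor gene (chr6:21540154-21540775), had 11.6 with AU-15330 and 34.4 with DMSO. Each of these 3 held the core and was lower with AU-15330 on both scales. Other regions of this class among the 20 strongest kept ones were nearest to PPIAL4H, PPIAL4F, MORC3, TPTE, ERMARD, MUC20 and FAM246B. Kept regions of all classes were dense in a few 1-Mb windows. The counts were 10 of 19 DMSO regions at 49 to 50 Mb of chromosome 4 and 8 of 14 at 144 to 145 Mb of chromosome 1. On chromosome 21 they were 5 of 5 at 8 to 9 Mb and 4 of 21 at 10 to 11 Mb. The share over all regions was 1.25%. The cause was not tested, and nearest genes are given by position only.

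After the 2 U1 variants, the 8 lost regions with the highest DMSO fold lay nearest to RBBP8 (17.2, chr18:22913854-22914208), APOL3 (16.9, chr22:36175930-36176331), IPMK (16.8, chr10:57898256-57898726), ETV4 (16.4, chr17:43555526-43555968), APCS (15.5, chr1:159596388-159596820), EPS15L1 (15.5, chr19:16445289-16445642), OR2AE1 (15.2, chr7:99869968-99870446) and TMEM256 (15.1, chr17:7403893-7404408). The APCS region had a pileup of 180 fragments with DMSO, against a median of 52 for kept regions. It held the core, as did those at IPMK, EPS15L1, OR2AE1 and TMEM256.

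Over all regions, kept ones were wider and stronger with DMSO than lost ones. Their median width was 522 bases, against 288 for lost regions, with a median fold of 6.29 against 4.21 and a median pileup of 52 against 22 fragments. These contrasts follow in part from the rule, since wide and strong regions more readily share a base with a region of the shallower AU-15330 list. Of the 430 kept regions, 31 were not expected to pass at the AU-15330 depth. Of the kept regions, 24.4% (20.4 to 28.8%) lay within 1 kb of a protein-coding start, 28.4% in other intronic sequence and 44.7% between genes. The shares for lost regions were 20.3% (19.9 to 20.7%), 35.6% and 42.0%. The promoter share of kept regions was 15.5% when a −log10 q of at least 5 was required in both lists or when 50% of the DMSO region had to be covered. The lost regions were not filtered in the same way, so their share above is no like comparison for it. Promoters were 947 of the 6856 regions with the highest DMSO fold. Kept regions lay a median of 30.3 kb from the nearest protein-coding start, and lost ones 37.3 kb. The octamer core was within 100 bases of the summit in 40.9% (36.2 to 45.7%) of kept and 46.2% (45.7 to 46.7%) of lost regions, against 3.49% and 5.34% in flanking windows 2 kb away. Without the first 3 classes the octamer share of kept regions was 47.6%, above that of all lost regions. Within the promoter class and the remaining class the core was more frequent in kept than in lost regions, as given above. Kept and lost regions were not compared at similar fold in these shares.

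Among the 6856 regions of highest DMSO fold the shares kept were compared by position and motif. Of the promoters there, 5.81% (4.40 to 7.49%) were kept, against 3.54% (3.08 to 4.04%) of other regions. Regions with the octamer core were kept in 2.61% (2.18 to 3.10%) and those without it in 6.80% (5.75 to 7.99%). These shares pool all classes. No kept region over a small RNA gene or called in all 18 other lists held the core within 100 bases of the summit. The comparison was not repeated by class among these 6856 regions. Over all folds, the core was more frequent in kept than in lost regions within the promoter and remaining classes. RUNX motif letters (AACCACA) were found at 5.58% (3.61 to 8.19%) of kept and 10.1% (9.83 to 10.5%) of lost summits, with 3.60% and 3.51% in their flanks. These letters, searched on both strands, mark the sequence bound by RUNX factors, a family with a member (RUNX1) among the tuft cell regulators.

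Kept regions were found in other lists more often than lost ones, in all 18. In the POU2F3 lists of NCI-H526, 78.6% of the kept regions were called with AU-15330 and 96.5% with DMSO, against 28.98% with AU-15330 and 75.1% with DMSO of the lost regions. For HA-POU2F3 in this line the shares were 76.3% with AU-15330 and 90.2% with DMSO for kept regions, against 15.9% and 53.7% for lost ones. Kept regions called with AU-15330 in both of these lists were 277, or 64.4% (59.7 to 68.9%), against 8.95% (8.65 to 9.26%) of the lost. Kept regions were also wider and stronger, and the part of width in these shares was not tested. Among those 6856 regions, the POU2F3 AU-15330 list still held 88.3% of 264 kept and 61.0% of 6592 lost regions, while the POU2F3 DMSO list held 98.5% of kept and 97.4% of lost regions there. In the myeloma lines the shares of kept regions ran from 13.95% (IRF4 with AU-15330 in NCI-H929) to 46.3%.

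**Figure D5:**
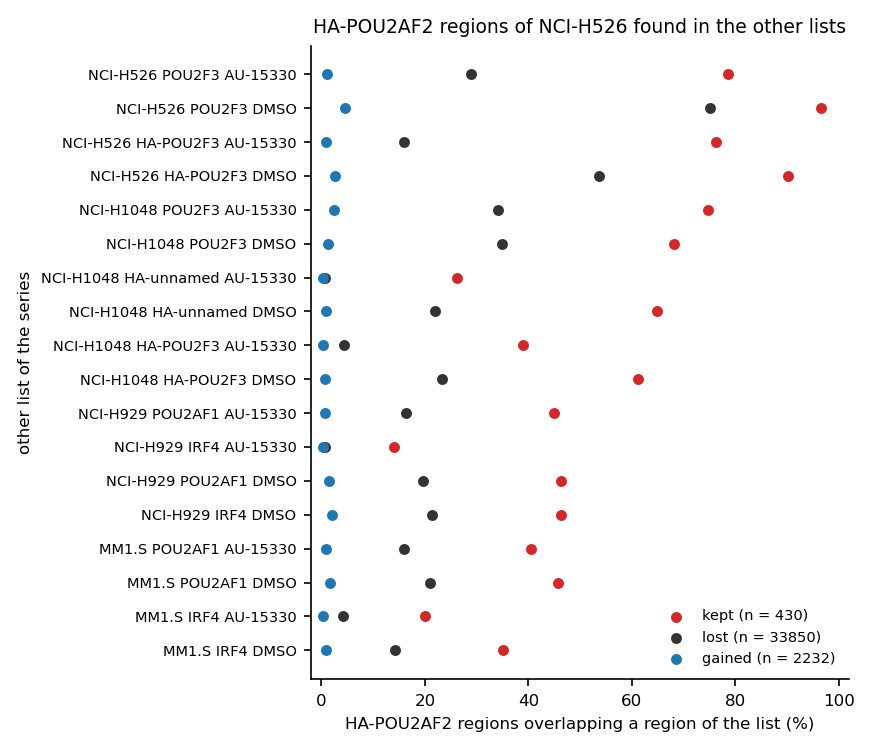
Share of HA-POU2AF2 regions of NCI-H526 (per cent) that overlap a region of each of the 18 other lists of the series, for kept (red), lost (black) and gained (blue) regions. Kept regions lie to the right of lost ones in all lists, and gained regions never exceed 4.57%.

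Gained regions, 83.8% (82.4 to 85.2%) of the AU-15330 list, were weak and had few of these features. Their median width was 204 bases, their median pileup 10 fragments, and their highest −log10 q 8.47, while AU-15330 regions over a DMSO region reached 271. A −log10 q of at least 5 was reached by 4.75% of gained regions and 35.3% of the AU-15330 regions that covered a DMSO region. Only 2.06% (1.51 to 2.74%) lay within 1 kb of a protein-coding start. The octamer core was near 7.62% (6.55 to 8.80%) of their summits, against 6.36% in their flanks. No other list held a region at 90.0% of them, and none lay over an annotated small nuclear or nucleolar RNA gene.

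The 10 gained regions with the highest fold, outside 1 chromosome that is not described, all had a pileup of 14 to 18 fragments. The strongest was in an intron of RABGAP1L (7.24, chr1:174589425-174589667). The one nearest PTH, the parathyroid hormone gene (6.99, chr11:13503218-13503517), held the core and was in 1 other list. The region nearest TUBA3C (7.002, chr13:16016618-16016864) held it and was in 6 others. The remaining 7 were nearest DCAF4, CWC25, TLK2, USP29, PPARGC1A, PHACTR2 and FAM20C, each with a fold of 6.79 and no core. All 7 had a pileup of 14 fragments. In the windows of the 46 tuft cell genes, gained regions were 2 at RUNX1, 2 at IRAG2, and 1 each at ITPR2 and PLA2G4A. These are 4 genes of 46, against 5.56% of all protein-coding genes.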

How the data were processed

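ChIP-seq with the HA antibody was made for 1 AU-15330 and 1 DMSO sample. According to the study's methods, reads were trimmed by the authors (the ChIP-seq methods name no tool), mapped to hg38 by BWA, freed of duplicates with Picard and passed to MACS2 for peak calling at a q-value of 0.05, with no control named, and blacklisted regions were removed. How reads with several matches were treated is not given in the sources used here. The deposited region lists hold a score, a fold enrichment (a ratio) over background, −log10 p and q values and a summit offset for each region. Pileup and background were recovered from the deposited fold and −log10 p values as the whole number of fragments that gives both within a tolerance of 0.002, for 100% of regions, and this was tested on simulated data. Regions outside chromosomes 1 to 22 and X (3.62% with AU-15330, 0.715% with DMSO) were left out. Annotation was GENCODE 44 and RefSeq, both on hg38, with a region placed by its summit. Python 3.11.15, pandas 2.3.3, scipy 1.17.1 and pysam 0.24.0 were used.

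Named regions were the 20 kept and 10 lost regions with the highest DMSO fold, the 10 gained regions with the highest AU-15330 fold, kept regions at genes of the lists, and the strongest region of 12 tuft cell genes. Regions on 1 chromosome are not named. The promoters other than histone ones, SOX4, BCL2, CHD9, MYCN, NBAS and DDX1 and some of the small RNA genes were chosen after their values were seen, as were the 5 classes, the motif letters other than the octamer and the U1 and U5 counts. The members and lists were chosen with earlier results of these data known. Alternatives covered thresholds, overlap rules, chromosomes, windows, depth and background.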

Additional observations from a re-analysis of the deposited data

How the results depend on the processing

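No paired analysis was possible because each condition was 1 library and no test was made. The share of DMSO regions kept, 1.25%, was 1.91% with a DMSO −log10 q of at least 5, 0.443% with that threshold on the AU-15330 list, 0.695% with both, 0.583% when 50% of the DMSO region had to be covered, 1.07% with summits within 200 bases, 6.27% of the 2663 strongest in lists of equal size, 1.47% over all sequences, 2.09% of regions expected at the AU-15330 depth and 1.02% without the first 3 classes (added after seeing the data). The gained share, 83.8%, was 41.1% at the stricter AU-15330 threshold, 86.3% by summits and 81.5% over all sequences. The promoter share of kept regions, 24.4%, was 41.9% with starts of all gene types, 15.5% at the stricter threshold in both lists and 15.5% with 50% covered. The octamer share, 40.9%, was 32.3% with ATTTGCAT, 35.1% within 50 bases, 29.1% at the stricter threshold in both lists and 47.6% without the first 3 classes. The median level ratio, 0.789, was 0.709 at the stricter threshold in both lists, and over the local background, added after seeing the data, it turned to 1.03. It turned likewise at promoters (1.11) and at remaining regions (1.03). The cause was not tested. The other 11 alternatives of these 5 results stayed within their counting intervals. With 1 library each and the shallower one treated, a region not listed with AU-15330 may still be bound below the threshold.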
